A study of Mus musculus with 24 samples.

Results

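The transcripts described here encode 8 kinases other than protein kinase A (PKA) that bear on the phosphorylation of beta-catenin at serine 552 or 675. They are the protein kinase B enzymes Akt1 and Akt2, the catalytic subunits of AMP-activated protein kinase (AMPK) Prkaa1 and Prkaa2, the p21-activated kinases Pak1 and Pak4, and the upstream kinases Pdpk1 and Pik3ca. Their rows were found by gene symbol. Each symbol matched 1 row of the 55416 genes in the table, and all 8 had a mean of at least 1 TPM (transcripts per 1e6), as did 15013 genes in all. TPM is a transcript abundance scaled for transcript length and library total. It measures mRNA, and neither the amount of a kinase, its activity nor the phosphorylation of beta-catenin was measured.

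The samples were cortical collecting ducts, the tubule segment of the renal cortex that takes up fluid from the nephrons, dissected by hand from male C57BL/6 mice aged 10 weeks and housed singly. All levels by genotype below are means ± SD over the 4 mice of a group, each mouse being the mean of its 3 tubules. Groups were 4 wild-type (WT) mice and 4 mice carrying beta-catenin with alanine in place of threonine 551 and serine 552 (MUT). There were 3 single-tubule RNA libraries per mouse and 24 in all. The legend deposited with the table names only the serine change, the labels' protocols name both, and zygosity is not stated by either. One field of the labels says vehicle where the protocol describes no treatment, so no treatment was compared. Both groups expressed the message of the mutated gene, and because the change is in amino acids a transcript level does not check the genotype.

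Beta-catenin joins cadherins to the actin cytoskeleton and, in the nucleus, serves as a coactivator of TCF/LEF factors. Phosphorylation at serine 552 by AKT, AMPK or PKA is associated in cell studies with its release from junctions and with transcriptional activity, while PAK enzymes are best known for serine 675 of the same protein. AKT is recruited to the membrane by the lipid product of PI3K, whose p110 alpha catalytic subunit is encoded by Pik3ca, and is then phosphorylated in its activation loop by PDK1, the product of Pdpk1. PIK3CA and PDK1 are thus inputs of AKT in this scheme rather than enzymes known to act on serine 552 themselves. AMPK responds to a falling energy charge and PAK1 to the GTP-bound forms of CDC42 and RAC. In the principal cell of the collecting duct, vasopressin signals through cyclic AMP and PKA to water channels.

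The mutated residues and the serine preferred by PAK enzymes are shown in the mouse coding sequence, 5′ to 3′, with the codons of the named residues in capitals. All stretches come from the GENCODE M21 transcripts of mouse build GRCm38, whereas the processing notes name GRCm39, so no coordinates are given.
Ctnnb1 threonine 551 and serine 552: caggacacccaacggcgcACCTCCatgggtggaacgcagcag
Ctnnb1 serine 675: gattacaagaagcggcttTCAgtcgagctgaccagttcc
In the translated stretches, the residues 3 and 2 places before serine 552 were both arginine, and those before serine 675 were lysine and arginine. Kinases of the AKT, PKA and PAK groups favour such basic residues ahead of their target. Threonine 551 is the residue directly before serine 552, so the MUT allele replaces neighbouring codons.

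The activation loop is the stretch in which 7 of the 8 kinases are switched on by phosphorylation, and it is shown to compare the paralogues, with the codon of the phosphorylated residue in capitals. The lipid kinase Pik3ca is not regulated in this way and has no line.
Akt1 threonine 308: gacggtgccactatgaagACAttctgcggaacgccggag
Akt2 threonine 309: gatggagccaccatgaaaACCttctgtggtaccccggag
Prkaa1 threonine 183: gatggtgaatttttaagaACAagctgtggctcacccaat
Prkaa2 threonine 172: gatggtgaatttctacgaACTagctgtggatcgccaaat
Pdpk1 serine 244: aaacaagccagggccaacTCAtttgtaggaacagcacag
Pak1 threonine 422: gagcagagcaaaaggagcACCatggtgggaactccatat
Pak4 serine 476: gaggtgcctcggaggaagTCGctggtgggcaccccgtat
Akt1 and Akt2 differed at 8 of these 39 bases and at 0 residues, and the AMPK subunits at 6 bases and 0 residues. Pak1 and Pak4 differed at 16 bases and 6 residues. Over the aligned proteins Akt1 and Akt2 shared 82.0% of residues (393 of 479), Prkaa1 and Prkaa2 76.4% (417 of 546), and Pak1 and Pak4, which belong to different groups of the PAK family, 46.0% (214 of 465). In each pair the transcripts are the products of separate genes, and how reads common to paralogues were assigned before the table was made is not known from the sources used here.

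The dissected segment carried the transcripts of its own cells. Aqp2, a water channel of principal cells under the control of vasopressin, ran from 9501 to 30070 TPM over the 24 tubules, and no principal or intercalated cell marker was at 0 in any library. Markers of other segments and of blood were high in 6 libraries, 5 of WT and 1 of MUT, and the summed level of 10 proximal tubule genes ran from 35.8 to 6816 TPM in WT tubules and from 27.4 to 1375 TPM in MUT tubules. Of those 10 genes, Slc5a2 was at 0 in 1 library and Slc5a12 in 3. The summed level of 5 erythrocyte genes was also higher in WT, with a range of 1.48 to 24918 TPM and a median of 89.4 TPM over tubules, against 0.62 to 203 TPM and a median of 1.94 TPM in MUT. By mouse it ran from 65.6 to 8320 TPM in WT and from 1.16 to 71.9 TPM in MUT, so that only MUT mouse 4 overlapped the WT mice. Hbb-bs was above 0 in every library, Hba-a1 was at 0 in 2, Alas2 in 7, Hbb-bt in 8 and Hba-a2 in 10. Leaving out the 6 libraries did not even out the erythrocyte level. Tubule 2 of WT mouse 1 (219 TPM) and tubules 1 and 3 of WT mouse 2 (148 and 302 TPM) remained. The other WT tubules left ran from 2.83 to 12.7 TPM. In MUT, tubule 1 of mouse 4 remained at 203 TPM, and the other tubules left ran from 0.62 to 5.74 TPM. The part of the erythrocyte difference in the genotype comparisons was not tested. In whole tubules, fewer cells of a type and less RNA per cell cannot be told apart. TPM keeps no sequencing depth, so depth is unknown.

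The levels of the 8 transcripts spanned a wide range, with Akt1 on top and Pak1 at the bottom. Akt1 averaged 143 TPM over the 8 mice, above 91.8% of the 15013 genes, and Pak4 followed at 85.5 TPM. Pdpk1 (48.0 TPM) and Akt2 (45.2 TPM) lay close together, as did the AMPK subunits Prkaa2 (27.9 TPM) and Prkaa1 (27.7 TPM). Pik3ca averaged 21.3 TPM and Pak1 2.63 TPM, above 19.9% of genes. All 8 transcripts were above 0 in all 24 tubules. Beside them, the PKA catalytic subunits Prkaca and Prkacb averaged 59.9 and 46.7 TPM, and the substrate Ctnnb1 385 TPM.

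**Figure D1:**
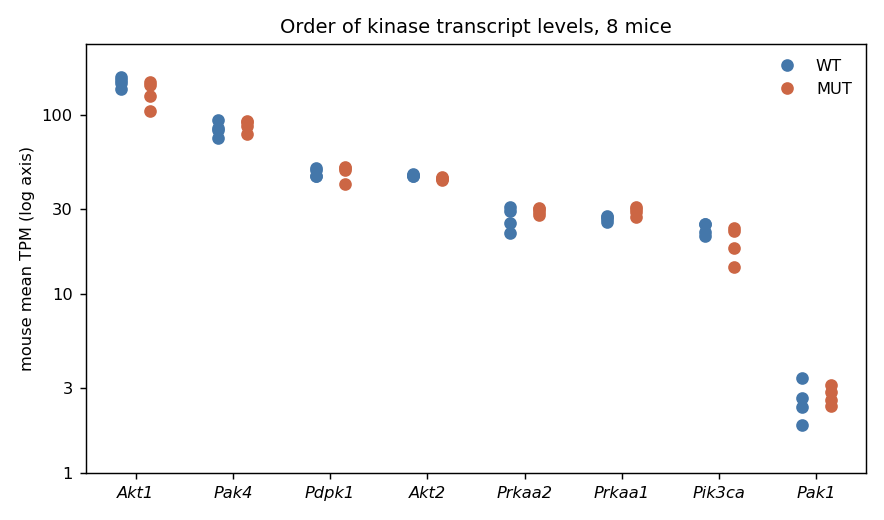
Mouse mean TPM (log axis) of each kinase transcript, ordered by its mean over 8 mice, with 1 point per WT or MUT mouse. Akt1 lies highest at a mean of 143 TPM and Pak1 lowest at 2.63 TPM, while Pdpk1 and Akt2, and Prkaa2 and Prkaa1, overlap.

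Neighbours in this order were compared within mice by a two-sided exact paired permutation test on log2(TPM + 1), adjusted over the 7 neighbouring pairs, with the order itself taken from the same mice. Akt1 exceeded Pak4, Pak4 exceeded Pdpk1, Akt2 exceeded Prkaa2, Prkaa1 exceeded Pik3ca and Pik3ca exceeded Pak1 in 8 of 8 mice each (exact p = 0.0078, the smallest that 8 mice allow, adjusted p = 0.0109). The gap from Pik3ca to Pak1 was the widest, 2.61 on the log2 scale (SD 0.34). Pdpk1 exceeded Akt2 in only 5 of 8 mice, by 0.08 (SD 0.12, exact p = 0.125, adjusted p = 0.146). Prkaa2 exceeded Prkaa1 in 4 of 8 mice, by 0.0038 (SD 0.11, exact p = 0.922, adjusted p = 0.922), so the order of the AMPK subunits was not resolved beyond the spread between mice.

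The study's contrast asks how tubules with a beta-catenin that cannot be phosphorylated at these residues differ from wild-type ones. None of the 8 kinase transcripts passed the threshold of limma's moderated test between the 4 MUT and 4 WT mice, adjusted by Benjamini-Hochberg over all 15013 genes. The background was 0% of genes at an adjusted p under 0.05, so the members' 0 of 8 equals the whole table. At an unadjusted p under 0.05 the background was 4.60% of genes (691), with 2.82% higher and 1.79% lower in MUT, and the members' count was again 0 of 8. Differences are given as MUT minus WT in log2(TPM + 1), a scale on which changes of weakly expressed genes look smaller than they are. By direction, 5 members were higher in MUT and 3 lower, with a median difference of 0.03, and 54.28% of all genes were higher, with a median of 0.01.

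**Figure D2:**
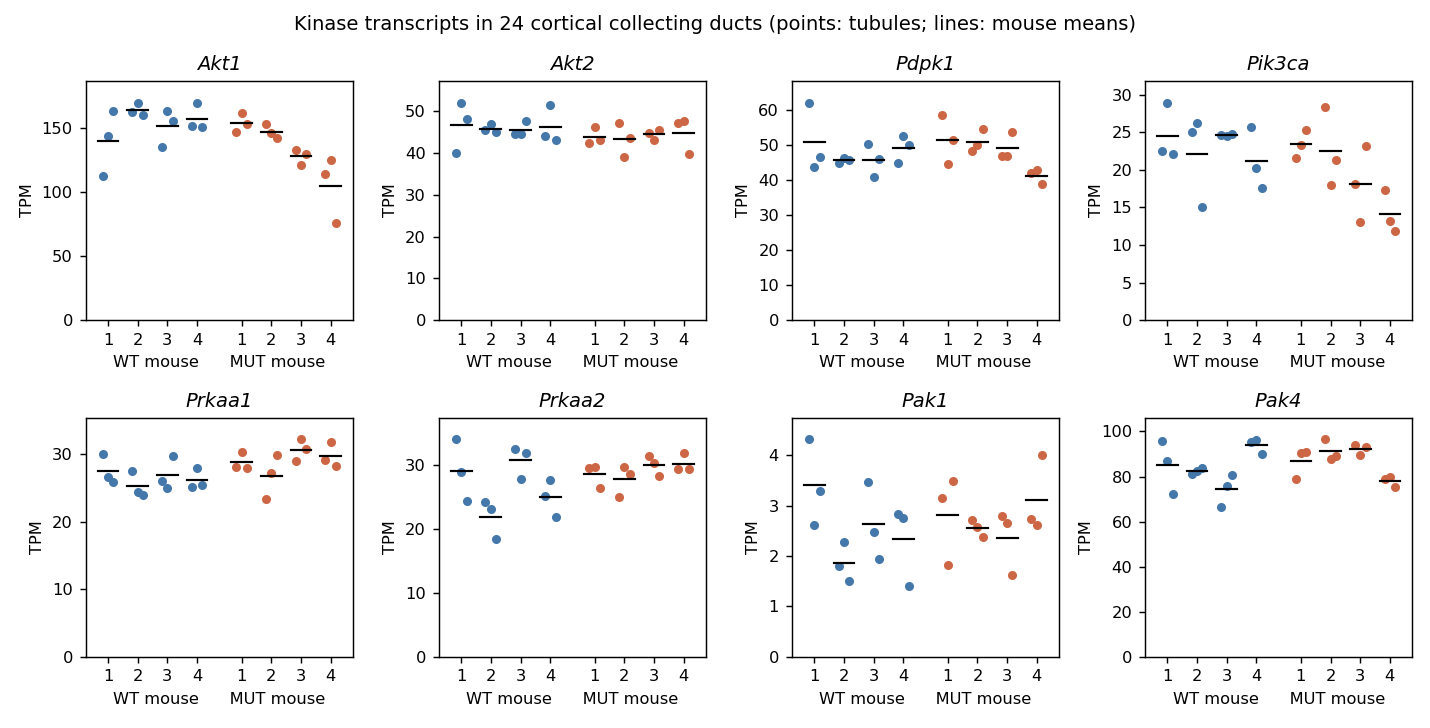
TPM of each kinase transcript in every tubule (points) and the mean of each mouse (lines), with 3 tubules for each of 4 WT and 4 MUT mice and a separate axis from 0 in each panel. Akt1 and Pik3ca are lowest in MUT mouse 4, at 105 and 14.1 TPM, and Akt2 means are lower in every MUT mouse than in every WT mouse.

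Among the AKT enzymes, Akt1 is the broadly expressed form tied to growth and survival. Its mouse means were 140.2, 164, 152 and 157 TPM in WT mice 1 to 4 and 154, 147, 128 and 105 TPM in MUT mice 1 to 4. MUT mice 3 and 4 lay below every WT mouse, and MUT mice 1 and 2 lay inside the WT range. The difference was -0.21 (SE 0.12, 95% interval -0.48 to 0.06; limma p = 0.109, adjusted p = 0.980), from 153 ± 10.2 TPM in WT to 134 ± 21.9 TPM in MUT. The difference leaned on 1 animal. Without MUT mouse 4 it was -0.10 (limma p = 0.280), and the lowest tubule of all, at 75.5 TPM, was tubule 3 of that mouse. It had a summed proximal tubule marker level of 1375 TPM and a summed macrophage marker level of 896 TPM, the highest of the MUT tubules for both lists. The part of those cells in the Akt1 level was not tested, and without that tubule alone the difference was -0.16 (limma p = 0.109). Other exclusions made the difference larger, to -0.29 without MUT mouse 1 and -0.27 without MUT mouse 2. It was -0.23 without the 6 libraries high in other markers, which include that tubule. The adjusted p of Akt1 stayed at 0.752 or above in every alternative.

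Akt2 is the form best known for insulin-stimulated glucose uptake. Its mouse means were 46.8, 45.9, 45.6 and 46.2 TPM in WT and 43.9, 43.3, 44.5 and 44.9 TPM in MUT. All 4 MUT mice lay below all 4 WT mice, a pattern in that direction that 1.08% of all genes also showed, and 3.02% in either direction. The gap was small, 46.1 ± 0.497 TPM against 44.2 ± 0.678 TPM, a difference of -0.06 (SE 0.04, 95% interval -0.16 to 0.04; limma p = 0.202, adjusted p = 0.980). Single tubules of both groups overlapped widely, from 40.1 to 52.1 TPM in WT (median 45.3) and from 39.2 to 47.6 TPM in MUT (median 44.2). Between tubules of a mouse the SD was 0.11 on the log2 scale. The estimated variance between mice of a genotype did not exceed 0 and was set to that floor. Without the 6 libraries high in markers of other segments or blood the difference was -0.12 (limma p = 0.0548), and without tubule 3 of MUT mouse 4 it was -0.04.

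The AKT inputs differed in how much they varied. Pdpk1 mouse means were 50.8, 45.6, 45.7 and 49.2 TPM in WT and 51.6, 50.9, 49.2 and 41.3 TPM in MUT. MUT mouse 4 lay below every WT mouse, MUT mice 1 and 2 lay above every WT mouse, and MUT mouse 3 lay inside the WT range. The Pdpk1 difference was 0.01 (SE 0.08, 95% interval -0.16 to 0.19; limma p = 0.891, adjusted p = 0.999). Leaving out MUT mouse 4 gave 0.08, and leaving out any of the other MUT mice, or WT mouse 2 or 3, turned the sign, to no lower than -0.02.

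Pik3ca, the catalytic subunit that makes the membrane lipid to which AKT binds, had mouse means of 24.5, 22.1, 24.6 and 21.2 TPM in WT and 23.4, 22.6, 18.1 and 14.1 TPM in MUT. MUT mice 3 and 4 were again below all WT mice. The difference was the largest among the members in size, -0.26 (SE 0.15, 95% interval -0.59 to 0.08; limma p = 0.117, adjusted p = 0.980), from 23.1 ± 1.73 TPM to 19.5 ± 4.30 TPM. Without MUT mouse 4 it was -0.12 (limma p = 0.312). Its tubules were scattered, from 15.0 to 28.9 TPM in WT (median 24.6) and from 11.9 to 28.4 TPM in MUT (median 19.7).

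Both AMPK catalytic subunits were higher in MUT by small amounts that did not pass the test. Prkaa1, the alpha 1 subunit, had mouse means of 27.5, 25.3, 26.9 and 26.2 TPM in WT and 28.8, 26.8, 30.6 and 29.7 TPM in MUT. All MUT mice except mouse 2 lay above every WT mouse. The difference was 0.13 (SE 0.06, 95% interval -0.01 to 0.27; limma p = 0.0680, adjusted p = 0.980), from 26.4 ± 0.952 TPM to 29.0 ± 1.65 TPM, the smallest p among the members. Its unadjusted p was 0.0244 without MUT mouse 2, with a difference of 0.16, and its adjusted p stayed at 0.712 or above in every alternative tried.

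Prkaa2, the alpha 2 subunit, had mouse means of 29.1, 22.0, 30.8 and 25.0 TPM in WT and 28.6, 27.8, 30.0 and 30.2 TPM in MUT. The MUT mice all fell inside the WT range, which WT mice 2 and 3 set at its ends. The difference was 0.14 (SE 0.10, 95% interval -0.09 to 0.37; limma p = 0.205, adjusted p = 0.980), from 26.7 ± 4.00 TPM to 29.1 ± 1.15 TPM. It was 0.05 without WT mouse 2 and 0.21 without WT mouse 3 (limma p = 0.541 and 0.0597). WT mouse 2 also had the highest principal cell marker score of the 8 mice, 10.58 as a mean log2(TPM + 1), and the lowest type B intercalated cell score, 8.94. The part of cell makeup in the Prkaa2 value was not tested.

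The PAK enzymes, effectors of CDC42 and RAC that act on the cytoskeleton, showed the widest gap in level within a family and no resolved difference by genotype. Pak4 mouse means were 84.9, 82.5, 74.4 and 93.8 TPM in WT and 86.8, 91.1, 92.3 and 78.1 TPM in MUT. All MUT means lay inside the WT range, and the difference was 0.06 (SE 0.08, 95% interval -0.13 to 0.24; limma p = 0.499, adjusted p = 0.997); it was 0.0014 without WT mouse 3 and 0.11 without WT mouse 4 or MUT mouse 4. Pak1 mouse means were 3.40, 1.86, 2.63 and 2.34 TPM in WT and 2.82, 2.56, 2.36 and 3.12 TPM in MUT. They also lay inside the WT range, with a difference of 0.08 (SE 0.15, 95% interval -0.27 to 0.43; limma p = 0.616, adjusted p = 0.997), which was -0.02 without WT mouse 2 and 0.19 without WT mouse 1. The interval for Pak1 is the widest of the members.

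**Figure D3:**
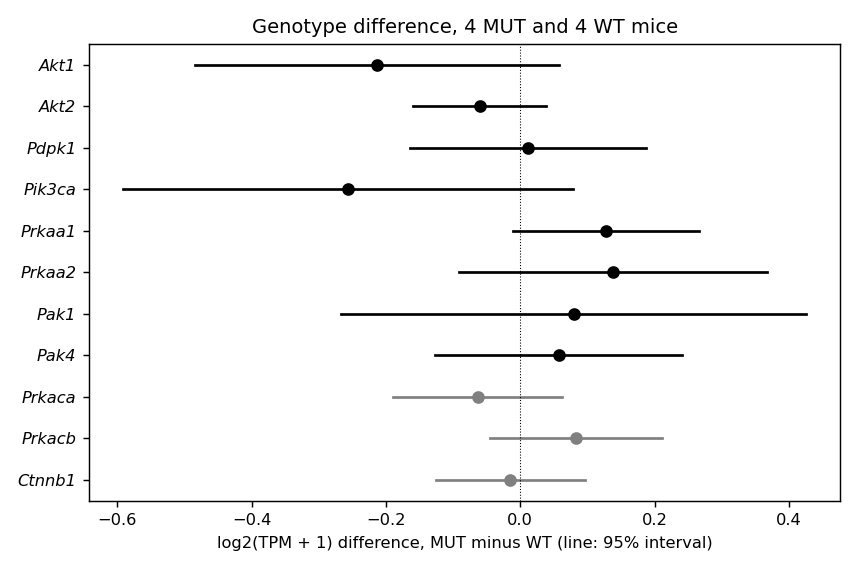
Difference in log2(TPM + 1) between 4 MUT and 4 WT mice (point) with its 95% interval (line) for the kinases in black and for the PKA catalytic subunits and Ctnnb1 in grey. Every interval includes 0, and Pik3ca at -0.26 and Akt1 at -0.21 lie farthest from it.

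The PKA catalytic subunits, also known to act on serine 552, did not pass the threshold either. Prkaca was 61.2 ± 2.40 TPM in WT and 58.6 ± 3.18 TPM in MUT (difference -0.06, SE 0.06; limma adjusted p = 0.980), and Prkacb was 45.4 ± 2.47 and 48.0 ± 1.65 TPM (0.08, SE 0.06; limma adjusted p = 0.980). The substrate Ctnnb1 was 387 ± 11.9 TPM in WT and 383 ± 16.7 TPM in MUT, a difference of -0.01 (SE 0.05; limma adjusted p = 0.997).

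The p-values in the authors' deposited table compare 12 WT with 12 MUT tubules and so treat tubules from 1 animal as if they were separate animals. In the authors' deposited table Prkaa1 had p = 0.00828 and Akt1 p = 0.0253, while the other 6 kinases ran from 0.0693 for Pik3ca to 0.857 for Pdpk1. That is 2 of 8 below 0.05, where 6.545% of all genes with a p in the authors' deposited table were below it. In the fit on mouse means neither was below 0.05, and with the mouse as a random effect over the 24 tubules Prkaa1 had an unadjusted limma p of 0.0437 and an adjusted p of 0.857.

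The balance within each pair of paralogues, which does not depend on the library total, showed no resolved difference between genotypes. Akt1 made up 76.8% ± 1.41 of the summed Akt1 and Akt2 TPM in WT and 74.7% ± 3.77 in MUT (two-sided exact permutation p = 0.371, adjusted over 3 shares to 0.914). The difference of -2.06 percentage points was -0.351 without MUT mouse 4 and -3.09 without MUT mouse 1. Single tubules ran from 65.4% to 78.8%. Prkaa1 made up 50.05% ± 3.04 of the AMPK alpha transcripts in WT and 49.8% ± 0.657 in MUT (exact permutation p = 0.886, adjusted p = 0.914). Pak1 made up 2.99% ± 0.808 of Pak1 and Pak4 in WT and 3.06% ± 0.597 in MUT (exact permutation p = 0.914, adjusted p = 0.914). The smallest p the 70 arrangements of 8 mice allow is 0.0286, and a p above the threshold does not show that the shares are equal.

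Much of the variation of these transcripts lay between tubules of the same mouse. The SD between tubules of a mouse on the log2(TPM + 1) scale was 0.10 for Pak4 and 0.28 for both Pak1 and Pik3ca, against a median of 0.19 over all tested genes. Mice accounted for an estimated 51.4% of the variance within genotype in Pak4, 45.7% in Akt1 and 44.9% in Prkaa2, but for 7.82% in Prkaa1. The median over all genes was 22.1%. For Akt2 the estimate was 0%, a floor, since its mouse means differed no more than the scatter between tubules alone would give. Over the 8 mouse means the coefficient of variation was lowest for Akt2, at 2.63%, and highest for Pak1, at 18.3%.

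Across the 24 tubules, after centring within genotype, the AMPK subunits varied together more closely than any other of the 28 pairs of members. Their Pearson correlation was 0.64, 0.57 without the 2 tubules farthest from the median of Prkaa1, and 0.66 over the 8 mouse means. Akt1 and Pik3ca followed at 0.53, 0.43 without the 2 farthest tubules and 0.77 over mice. Prkaa2 and Pak1 had 0.51, which was 0.24 without the 2 farthest tubules, and Akt1 and Pak1 had -0.47, which was -0.09 without them. The 28 values over tubules had a median of 0.08. Over the 8 mouse means the order of the pairs differed. There Akt2 and Prkaa1 were highest at 0.82 (0.05 over tubules), and Akt1 and Akt2 lowest at -0.76 (0.39 over tubules). These are descriptions, since tubules of a mouse share an animal and all transcripts of a tubule share a library and its total.

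**Figure D4:**
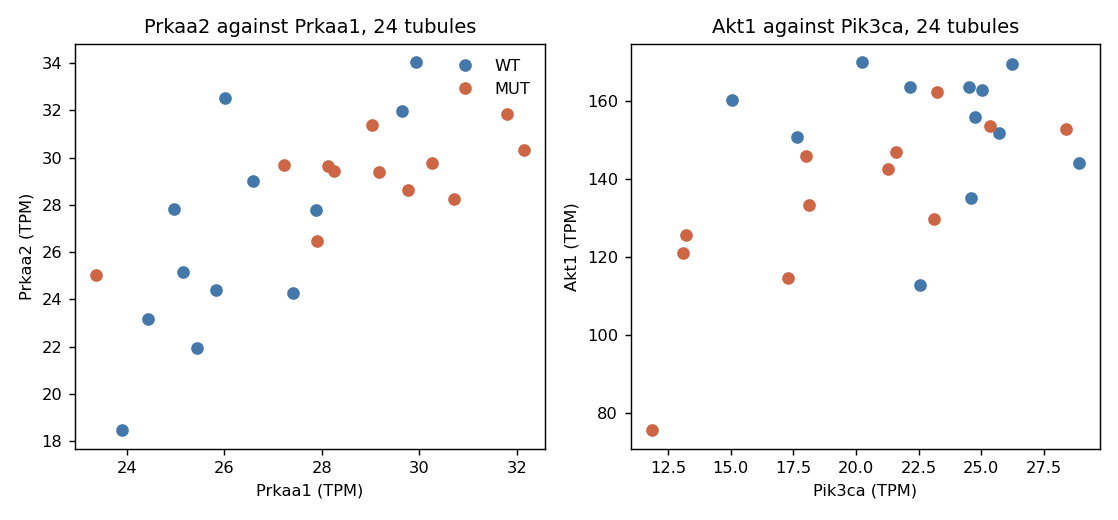
TPM of Prkaa2 against Prkaa1 (left) and of Akt1 against Pik3ca (right) in 24 tubules, coloured by genotype, on axes that do not start at 0. Prkaa1 and Prkaa2 tend to be high and low in the same tubules (r = 0.64 after centring within genotype). There are exceptions, such as tubule 1 of WT mouse 3 with Prkaa2 at 32.5 and Prkaa1 at 26.0 TPM. The tubule with the lowest Akt1 level, 75.5 TPM, also has the lowest Pik3ca level.

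Several of these transcripts varied with the cell type marker scores of the tubules. Prkaa2 correlated with the score of 5 genes shared by both intercalated cell types at 0.65 and with that of 4 type B genes at 0.60, and with the principal cell and type A scores at -0.52 and -0.65. Without the 2 farthest tubules these values were 0.65, 0.32, -0.29 and -0.55. Prkaa1 showed the same signs, with 0.59 for the shared genes, 0.48 for type B, -0.38 for principal cells and -0.35 for type A. Type B cells secrete bicarbonate and type A cells secrete acid, while the principal cell score itself correlated with the type B score at -0.87 and with the type A score at 0.82, so these relations are not separate. Akt1 correlated with the type A score at 0.48 and the principal cell score at 0.43. It correlated at -0.58 with the fibroblast and smooth muscle score, at -0.54 with the macrophage score and at -0.51 with the proximal tubule score, the last of which was -0.22 without the 2 farthest tubules. Pak4 correlated with the type A score at 0.48. Pak1 and Prkaa2 each correlated with the macrophage score at 0.52, which was 0.64 and 0.36 without the 2 farthest tubules. Over mouse means the macrophage values were 0.74 for Pak1, 0.61 for Prkaa2, 0.84 for Prkaa1 and 0.86 for Akt2. With the erythrocyte score Pak4 had -0.18 over tubules, 0.10 without the 2 farthest tubules and -0.94 over the 8 mouse means. The last value is named because it lies farthest from 0 of all members and lists over mouse means, so it is extreme by choice.

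**Figure D5:**
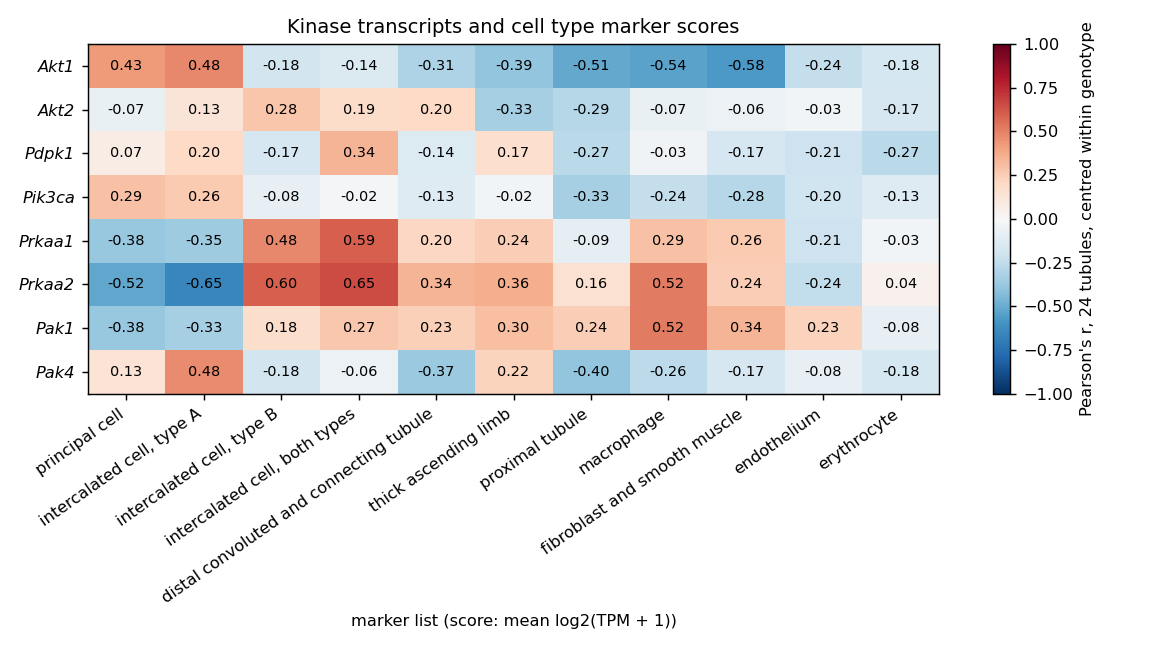
Pearson's r over 24 tubules, centred within genotype, between log2(TPM + 1) of each kinase and the mean log2(TPM + 1) of each cell type marker list, printed in each cell. Prkaa1 and Prkaa2 are positive with the type B and shared intercalated cell scores (up to 0.65) and negative with the type A score (-0.35 and -0.65), whereas Akt1 is negative with proximal tubule, macrophage and fibroblast scores (to -0.58).

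MUT mouse 4, lowest for Akt1 and Pik3ca, was also the highest or lowest of the MUT mice in several marker scores. That animal had the highest macrophage score of the MUT mice (4.73 against 2.67 to 3.97), the highest proximal tubule score (4.25 against 1.70 to 2.60) and the highest fibroblast and smooth muscle score (1.92 against 1.24 to 1.45). It also had the lowest MUT principal cell score (9.89, against 9.98 in MUT mouse 3) and type A score (7.31). By summed TPM, MUT mouse 3 was instead the higher for fibroblast and smooth muscle genes (81.9 against 81.3 TPM). MUT mouse 3 was also the lower for principal cell genes (28626 against 30015 TPM). Among WT mice, mouse 1 had the highest macrophage score, 4.78, and the lowest Akt1 mean, whereas mouse 3 had the highest proximal tubule score, 5.33, with Akt1 at 152 TPM. All 7 macrophage genes were above 0 in every library, with Cd74 the most abundant, and their sum ran from 44.4 to 837 TPM in WT tubules and from 46.5 to 896 TPM in MUT tubules. Of the 7 fibroblast and smooth muscle genes, Dcn made up most of the sum, which ran from 24.8 to 104 TPM in WT and from 33.5 to 94.0 TPM in MUT, and Pdgfrb and Acta2 were at 0 in 1 library each. The collagen genes Col1a1, Col1a2 and Col3a1 stayed below 4 TPM. The part of these cells in the Akt1 and Pik3ca values was not tested.

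For each member, the gene most like it over the 24 centred tubules was Zmiz2 for Akt1 (r = 0.93), Zfp574 for Pak4 (0.88), Rap1b for Prkaa1 (0.87), Sertad2 for Pdpk1 (0.84), Prps2 for Prkaa2 (0.83), Gm20605 for Akt2 (0.82), Nr3c2 for Pik3ca (0.73) and Sla for Pak1 (0.72). Nr3c2 encodes the mineralocorticoid receptor and Sla an adaptor of blood cells. Sla had a mean of 1.17 TPM, close to the filter of 1 TPM. Akt1 had 27 genes with a correlation over 0.8 and Pak4 24, whereas Pik3ca and Pak1 had 0. These genes are the best of 15013, so their values are high by choice.

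The wider PI3K, AKT, AMPK and PAK pathways were described from 9 lists of 102 genes, of which 94 had a mean of at least 1 TPM. None of the 94 passed the limma test over all genes, 50 were higher and 44 lower in MUT, and the median difference was 0.01. At an unadjusted p under 0.05 there were 6 genes, 6.38% of the 94, against 4.60% of all genes. Of these, 2 were higher and 4 lower. Mouse means did not overlap for 5 of the 94, where 3.02% of all genes showed this.

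Among the 13 tested PI3K subunits and receptors, 8 were higher and 5 lower, with a median of 0.01. Met, the hepatocyte growth factor receptor, was the most abundant, with a WT mean of 98.9 ± 24.6 TPM and a MUT mean of 97.5 ± 9.88 TPM (difference 0.0027, SE 0.15). Pik3r2, a regulatory subunit of PI3K, was 46.8 ± 2.23 and 42.9 ± 1.58 TPM, with every MUT mouse below every WT mouse (-0.12, SE 0.05; limma p = 0.0585, adjusted p = 0.980). It was -0.21 without the 6 libraries high in other markers. The 8 brakes on AKT divided evenly, 4 higher and 4 lower. The phosphatase scaffold Ppp2r1a stood at 359 ± 29.0 and 364 ± 23.3 TPM (0.02, SE 0.07), and Phlpp1, which dephosphorylates AKT, at 7.73 ± 1.61 and 6.32 ± 1.58 TPM (-0.26, SE 0.18; limma p = 0.183). The Phlpp1 difference was -0.39 without MUT mouse 1, -0.14 without WT mouse 4 and -0.15 without MUT mouse 4.

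Of the 12 tested genes in the list of mTORC2 components and AKT substrates, 5 were higher and 7 lower. Bad, a cell death protein that AKT inactivates, was 111 ± 2.37 TPM in WT and 102 ± 4.20 TPM in MUT, with no overlap between mice (-0.13, SE 0.05; limma p = 0.0222, adjusted p = 0.980), and its difference was -0.21 without the 6 libraries high in other markers. Of the 9 other kinases that PDK1 activates, 2 were higher and 7 lower. Their most abundant member, the aldosterone-induced kinase Sgk1, stood at 432 ± 130 TPM and 345 ± 173 TPM (-0.42, SE 0.36; limma p = 0.276), and its difference was -0.71 without MUT mouse 3, -0.24 without WT mouse 1 and -0.07 without MUT mouse 4. Of the 14 genes that FOXO factors, which AKT restrains, are known to induce, 8 were higher and 6 lower. Cdkn1b, whose product p27 holds the cell cycle back, was 9.07 ± 0.762 TPM in WT and 5.29 ± 1.35 TPM in MUT, with every MUT mouse below every WT mouse (-0.69, SE 0.16; limma p = 0.00164, adjusted p = 0.869). The mitochondrial enzyme Sod2 stood at 602 ± 58.9 and 605 ± 51.6 TPM (0.0084, SE 0.09).

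Around AMPK, 5 of 11 regulatory subunits and upstream kinases were higher and 6 lower. Prkab1, the beta 1 subunit that the alpha subunits need, was 269 ± 9.85 TPM in WT and 274 ± 25.2 TPM in MUT (0.02, SE 0.07). Stradb, a partner of the AMPK-activating kinase LKB1, was 22.1 ± 0.991 and 19.8 ± 0.803 TPM without overlap (-0.15, SE 0.06; limma p = 0.0328, adjusted p = 0.980). Of 9 AMPK substrates, 4 were higher and 5 lower. The most abundant of them, the mitochondrial fission factor Mff, stood at 214 ± 12.3 and 217 ± 6.12 TPM (0.02, SE 0.05).

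In the PAK family and its GTPase inputs, 7 of 13 were higher and 6 lower. Cdc42, the GTPase that switches PAK1 on, was 459 ± 20.4 TPM in WT and 514 ± 19.4 TPM in MUT, and all 4 MUT mice exceeded all WT mice, as in 1.94% of all genes (0.16, SE 0.05; limma p = 0.0120, adjusted p = 0.980). Arhgef7, an exchange factor that binds PAK and is named here after its values were seen, was 12.4 ± 1.502 and 9.90 ± 1.70 TPM (-0.32, SE 0.13; limma p = 0.0352, adjusted p = 0.980). All 7 genes listed downstream of PAK, not all of them direct substrates, were higher in MUT, where 54.28% of all genes were higher. None had an unadjusted p under 0.05, and their median difference was 0.05. The actin-severing proteins Cfl1 and Cfl2 were 466 ± 23.0 against 482 ± 23.7 TPM (0.05, SE 0.06) and 112 ± 7.74 against 118 ± 1.14 TPM (0.07, SE 0.06), the latter 0.03 without WT mouse 2 or without the 6 high-marker libraries. For comparison, 3 of 5 tested PKA subunits were higher and 2 lower, and the regulatory subunit Prkar1a, the most abundant, stood at 372 ± 20.0 and 391 ± 24.7 TPM (0.07, SE 0.06; limma p = 0.280).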

How the data were processed

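The authors deposited TPM per gene and library, with a p-value per gene in the same table. The submitters' processing notes list RSEM 1.3.3 beside STAR, on GRCm39. No source used here gives the annotation or filters. A library's TPM sum to a fixed total, so depth is unknown. Each mouse was the mean of its 3 tubules in log2(TPM + 1), and a mean TPM of at least 1 was required of a gene. MUT and WT mice, 4 each, were compared by limma 3.58.1 in R 4.3.3 (empirical Bayes moderation with trend, Benjamini-Hochberg adjustment over 15013 genes, threshold 0.05), after the method was tested on simulated data. Values are means ± SD of 4 mouse means. Nothing in the labels gives litters or dissection days, so shared days could not be modelled.

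The members and gene lists were chosen with earlier results of these data known. Besides the members and Ctnnb1, the text names for each list the most abundant gene and the gene with the smallest p, and for each member the gene most correlated with it. One gene named by this rule is not reported here. Marker scores are mean log2(TPM + 1) over a list. A library counted as high in other-segment or blood markers when the summed proximal tubule, thick ascending limb or erythrocyte level exceeded both 5 times the median of libraries and 500 TPM. Alternatives covered the pseudocount, filter, scaling, averaging, a mouse random effect, a block on mouse number and left-out libraries or mice. Sequences are from GENCODE M21 (GRCm38).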

Additional observations from a re-analysis of the deposited data

How the results depend on the processing

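No member passed the adjusted threshold in any alternative, and all tested members kept their direction except Pak1 and Pdpk1. Genes past the threshold numbered 0, but 1 with the mouse as a random effect (Anp32a, limma adjusted p = 0.00142) and 0 to 1 as single mice were left out (Gm22107, without MUT mouse 4), both named after their values were seen. Members with an unadjusted p under 0.05 numbered 0, but 1 with the random effect (Prkaa1, limma p = 0.0437), 1 without the 6 libraries high in other markers, which leaves WT mice 3 and 4 with 1 tubule each (Akt1, limma p = 0.0234) and 0 to 2 as single mice were left out, with 2 (Akt1 and Pik3ca) without MUT mouse 1. The count at an unadjusted p under 0.05 over all genes was 434 of 8842 tested (filter at 10 TPM) to 1554 of 43528 tested (no filter). Those settings tested other numbers of genes than the 15013 of the main fit. The count was 1186 of 15013 without WT mouse 2, and the cause of that rise was not tested. As single mice were left out, differences ran from -0.016 to 0.19 for Pak1, -0.021 to 0.082 for Pdpk1, -0.075 to 0.16 for Met, -0.018 to 0.062 for Ppp2r1a, -0.015 to 0.087 for Prkab1, -0.027 to 0.035 for Mff, -0.056 to 0.068 for Sod2 and -0.044 to 0.0044 for Ctnnb1. The Akt1 share difference ran from -3.09 to -0.351 percentage points, the Prkaa1 share difference from -1.36 to 0.967, the Pak1 share difference from -0.193 to 0.362, and Prkaa2 minus Prkaa1 from -0.023 to 0.033. Median-ratio scaling reversed Met (-0.0080) and Sod2 (-0.0024), and leaving out the high-marker libraries reversed Met (-0.030), Mff (-0.0013), Sod2 (-0.042) and Prkaa2 minus Prkaa1 (-0.0073). Without those libraries the correlation of Pak1 with Sla was 0.60 and of Pdpk1 with Sertad2 0.73. The labels link same-numbered mice by nothing but the number. Correlations of their deviations were -0.038 to 0.019, which does not show that nothing else was shared. With mouse number as a replicate block 0 genes passed and 483 had an unadjusted limma p under 0.05, against 691. Pak1 gave no value with the filter at 10 TPM.

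With 4 mice a group, the 95% intervals of the members still allow differences such as -0.59 for Pik3ca and 0.43 for Pak1. Depth is unknown, so counting error at the low level of Pak1 cannot be stated.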
